A study of Homo sapiens with 4 samples.

Results

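The genes described here encode the scaffold of the sarcomere: titin and the myosin-binding proteins C, the M-band proteins, the proteins that cap and measure the thin filament, the Z-disc proteins, and the LIM-domain proteins, ubiquitin ligases, desmin and chaperones that attach to them. A list of 42 gene symbols was looked up in the deposited gene table, which holds 23615 symbols, and all 42 were found in a single row each. The list was put together by function, with earlier results of these data known.

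A sarcomere is the contractile unit of striated muscle. Thin actin filaments are anchored in the Z-disc at each of its ends, thick myosin filaments are cross-linked at the M-band in its centre, and titin runs from the one to the other. Several scaffold families have a member used mainly by the heart and others used mainly by slow or fast skeletal fibres, and several scaffold proteins are spliced differently in the fetal and the adult heart.

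The 4 libraries came from unsorted day 14 cultures of the human embryonic stem cell (hESC) line RUES2, and the question was how cardiomyocytes made by 2 routes differ. Cells of both groups were induced with activin A at 100 ng/ml and BMP4 at 5 ng/ml (A100/B5). In the CPC group (2 biological replicates), cardiac progenitor cells went on to cardiomyocytes, with the Wnt/β-catenin inhibitor XAV at 1 µM on day 3 as the study's supplement draws it for a subset of experiments. In the ECsXAV group (2 biological replicates), the study's methods changed the base medium on day 2 and added VEGF, bFGF and further BMP4. These cells became hemogenic endothelial cells (ECs), which were then given XAV at 2 µM on day 5 and converted to cardiomyocytes. All cells were of 1 line and no cell type was purified, so a lower number of cells of a type and less RNA per cell cannot be told apart. The sample names have a different stem in each group, and differences between experiments and between routes cannot be told apart either.

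Values are FPKM, in which the fragments of a gene are divided by its length and by the mapped fragments of the library, which makes levels of genes of unequal length comparable within a library. At least 1 FPKM was reached by 12070 to 12240 genes per library, and the relative depth of the other 3 libraries was 50.1% to 86.9% of that of ECsXAV replicate 1. The defining markers of cardiomyocytes were present in all 4 libraries: the 12 cardiomyocyte markers summed to 19234 and 18218 FPKM in the ECsXAV libraries and to 16891 and 17744 FPKM in the CPC libraries. For several other marker lists the summed FPKM was higher in ECsXAV. The 10 fibroblast markers summed to 192 and 228 against 108 and 106 FPKM, and the collagens COL1A1, COL1A2 and COL3A1 made up most of these sums. Of the 6 tested, 3 were past the criterion (COL1A1, COL3A1 and LUM). POSTN and PDGFRA had the other sign, with log2 fold changes of 0.15 and 0.19. The 7 smooth muscle markers summed to 316 and 287 against 173 and 198 FPKM, with 1 of 5 past it (TAGLN) and a median log2 fold change of -0.07, and ACTA2 (0.16) and LMOD1 (0.64) had the other sign. The 10 markers of endoderm and epithelium summed to 219.9 and 259 against 102 and 149 FPKM, with 2 of 5 past it (AFP and TTR). KRT19 made up most of these sums, at 178 and 223 against 82.1 and 128 FPKM, and did not pass (adjusted p = 0.144 from limma). The 7 proliferation markers summed to 70.6 and 59.6 against 23.3 and 24.6 FPKM, with 6 of 7 past it. The 10 endothelial markers summed to 27.6 and 28.9 FPKM in ECsXAV against 25.2 and 23.7 FPKM in CPC, without overlap. None of the 3 tested passed in limma (adjusted p of 0.294 to 0.652), and KDR had the other sign (log2 fold change 0.20). Among the defining markers of these lists, VWF was listed at 0 in both CPC libraries, DCN and TCF21 in CPC replicate 2, TTR and FOXA2 in CPC replicate 1, and CLDN5 in ECsXAV replicate 2. What part these other cells have in the differences below was not tested.

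A small set of the scaffold genes differed between the routes, a chaperone, a myosin-binding protein and a pair of Z-disc proteins. Of the 42 genes, 35 had a mean of at least 1 FPKM and were tested with limma on log2(FPKM + 1) among 12398 genes, with Benjamini-Hochberg adjustment over all of them. The criterion was an adjusted p under 0.05 and a change over 2-fold, which 2.15% of all tested genes met. It was met by 4 of the 35 (11.4%): CRYAB, PDLIM1 and MYBPC3 were higher in the ECsXAV cultures and MYOZ1 in the CPC cultures. Of all tested genes, 1.44% met it with ECsXAV higher and 0.71% with CPC higher. An unadjusted p under 0.05 was reached by 15 of the 35 (42.9%), against 18.2% of all tested genes, with 11 of the 15 higher in ECsXAV and 4 in CPC, against 10.4% and 7.86% of all tested genes. Fold changes are CPC minus ECsXAV throughout, so that a negative value is higher in ECsXAV, and for genes with few reads the added 1 draws this value towards 0. The median over the 35 was -0.20 on the log2 scale, against -0.0045 over all tested genes, and the sign was negative for 25 and positive for 10. Libraries of the groups did not overlap for 24 of the 35 (68.6%), of which 17 were higher in ECsXAV and 7 in CPC, against 49.8% of all tested genes, 25.4% higher in ECsXAV and 24.4% higher in CPC. The 95% interval lay within a 2-fold change either way for 24 of the 35, compared with 87.7% of all tested genes.

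The calls rest on few libraries. The smallest two-sided p of an exact permutation test of 2 libraries against 2 is 0.333, and the p-values given here come from the variance that limma pools over genes. Without the filter on low FPKM none of the 42 genes passed in limma (15 had an unadjusted p under 0.05, against 3325 of all 18772 genes). Leaving out each library in turn left a group with a lone library, and calls from such fits are described with the processing below. The median log2 fold change of the 35 was then -0.24 to -0.13. Replicates lay closer together in ECsXAV, where the median difference between the libraries of a gene was 0.14 on the log2 scale, than in CPC, where it was 0.24.

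**Figure D1:**
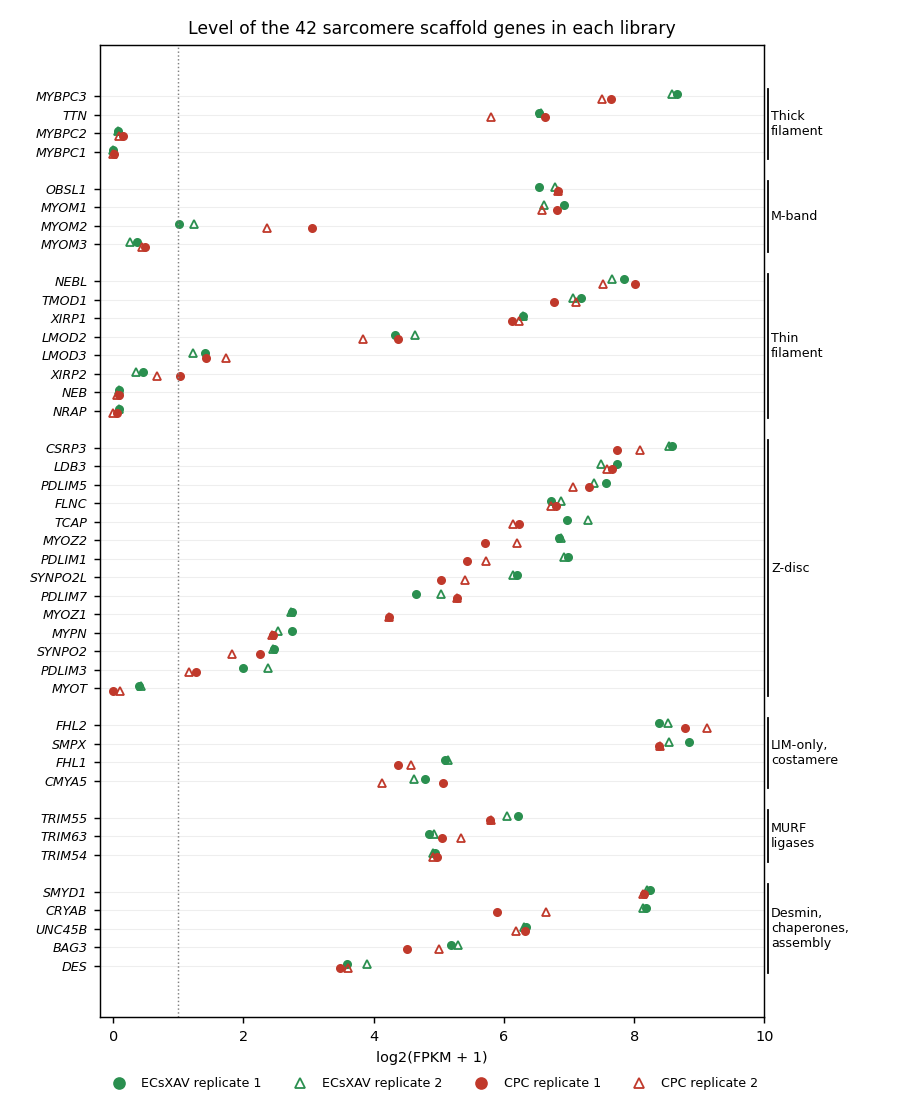
Level of each of the 42 genes in each library as log2(FPKM + 1), by functional group and, within it, by mean level. Green marks are the 2 ECsXAV libraries, red marks the 2 CPC libraries, and the dotted line is 1 FPKM. Of the 35 tested genes, green and red marks do not overlap for 17 with ECsXAV higher and 7 with CPC higher. CRYAB, PDLIM1, MYBPC3, PDLIM3, SYNPO2L and TCAP are among the 17, and MYOZ1 and MYOM2 among the 7.

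As a whole, the 42 genes summed to 4244 and 4087 FPKM in the ECsXAV libraries, which was 1.40% and 1.29% of all summed FPKM. They summed to 3329 and 3400 FPKM in the CPC libraries, or 1.17% and 1.13%. The highest mean over the 4 libraries, which pools both groups, was that of FHL2 at 423 FPKM, followed by SMPX at 374, CSRP3 at 309, MYBPC3 at 290.4 and SMYD1 at 289.7 FPKM. Between neighbours of this order the means were closer than the range of either gene over the libraries. At the low end, 7 genes stayed under a mean of 1 FPKM and were not tested. MYBPC1 and MYBPC2, the slow and fast skeletal forms of myosin-binding protein C, were at most 0.0146 and 0.107 FPKM in any library. Nebulin (NEB), the ruler of the skeletal thin filament, was at 0.0389 to 0.0643 FPKM and the nebulin-related anchoring protein NRAP at 0 to 0.0690 FPKM. MYOM3, a skeletal myomesin, was at 0.193 to 0.409 FPKM. The actin-binding repeat protein XIRP2 was at 0.37 and 0.269 FPKM in ECsXAV and at 1.05 and 0.589 FPKM in CPC. Myotilin (MYOT), a Z-disc protein that binds filamin and alpha-actinin, was at 0.313 and 0.349 FPKM in ECsXAV and at 0 and 0.0713 FPKM in CPC.

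Along the thick filament, MYBPC3 was higher in the ECsXAV cultures and titin did not pass. MYBPC3, the cardiac myosin-binding protein C (chr11:47352957-47374253 of GRCh37, minus strand), was at 401 and 381 FPKM in the ECsXAV libraries and at 198 and 181 FPKM in the CPC libraries. The groups did not overlap, and the ECsXAV level was 2.06 times the CPC level. The log2 fold change was -1.04 (standard error 0.125, adjusted p = 0.0327 from limma). This change lay close to the 2-fold limit: it was -0.97 when libraries were scaled to equal cardiomyocyte markers and -0.91 after quantile normalization (adjusted p = 0.0621 from limma), and the gene did not pass in either. TTN encodes titin, which sets the passive stiffness of the sarcomere. It was at 91.9 and 94.3 FPKM in ECsXAV and at 98.3 and 54.6 FPKM in CPC. CPC replicate 2 was low and CPC replicate 1 the highest of the 4, so the groups overlapped (log2 fold change -0.34, 95% interval -1.09 to 0.40).

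The window before the start site of MYBPC3 is shown because its letters match motifs of the cardiac factors MEF2 and GATA. It covers the 250 bases upstream of the RefSeq start site (chr11:47374254-47374503, minus strand), with a MEF2 site that begins 94 bases before the start and an AGATAA that begins 64 bases before it in capitals.
MYBPC3: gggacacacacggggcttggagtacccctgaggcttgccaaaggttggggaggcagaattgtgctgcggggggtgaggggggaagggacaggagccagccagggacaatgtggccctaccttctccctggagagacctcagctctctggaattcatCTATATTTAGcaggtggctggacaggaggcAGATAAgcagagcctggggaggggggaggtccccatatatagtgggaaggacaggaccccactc

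At the M-band none of the 3 tested genes passed. OBSL1, the obscurin-like protein that ties myomesin to titin, was at 91.7 and 109.6 FPKM in ECsXAV and at 113 and 113 FPKM in CPC (log2 fold change 0.17, 95% interval -0.18 to 0.51). Myomesin 1 (MYOM1), the main cross-linker of the M-band, was at 120.0 and 97.4 against 112 and 94.8 FPKM, with overlapping groups. MYOM2 encodes M-protein, which marks the M-band of the adult heart and of fast skeletal fibres. It was at 1.02 and 1.37 FPKM in ECsXAV and at 7.34 and 4.16 FPKM in CPC. Both CPC libraries were above both ECsXAV libraries, but the CPC libraries lay far apart. The log2 fold change was 1.58, the highest of the 35 (standard error 0.263), and the gene did not pass (adjusted p = 0.0584 from limma). With a pseudocount of 0.1 the log2 fold change was 2.13 and the gene passed (adjusted p = 0.0421 from limma).

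MYOM1 was read mostly as 1 of its transcripts. NM_003803 made up 83.2% and 80.8% of the MYOM1 FPKM in ECsXAV and 80.9% and 80.4% in CPC, and the rest was NM_019856. The share was alike in all 4 libraries. NM_003803 is known as the form with the EH exon, used in the embryonic heart, and NM_019856 as the form without it, which the deposited files do not state. The EH exon is shown because it sets these forms apart. It was taken from GENCODE as the coding exon that 1 of a pair of MYOM1 reading frames lacks, and is exon 18 of a transcript with 37 coding exons (chr18:3129230-3129517 of GRCh37, minus strand) and its 288 bases add 96 codons to a reading frame of 1589, giving 1685. No base is in capitals.
MYOM1 EH exon: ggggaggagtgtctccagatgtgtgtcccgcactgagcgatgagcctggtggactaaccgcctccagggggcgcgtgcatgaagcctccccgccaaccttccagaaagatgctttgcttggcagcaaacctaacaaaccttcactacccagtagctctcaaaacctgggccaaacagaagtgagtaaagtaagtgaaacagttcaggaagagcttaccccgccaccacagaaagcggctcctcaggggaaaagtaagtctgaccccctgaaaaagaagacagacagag

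The thin filament group had no gene past the criterion. Its 5 tested genes had log2 fold changes of -0.37 to 0.26, and all 5 intervals lay within 2-fold, as did 87.7% over all tested genes. NEBL, which encodes nebulette, the short cardiac relative of nebulin, was the most abundant at 229.9 and 200.3 FPKM in ECsXAV and 257 and 182 FPKM in CPC. The CPC libraries bracketed the ECsXAV libraries (log2 fold change 0.01, 95% interval -0.52 to 0.54). TMOD1, which caps the pointed end of the thin filament, was at 144 and 132 against 108 and 137 FPKM, with overlapping groups. The leiomodins LMOD2 and LMOD3 lengthen the thin filament at the same end: LMOD2 was at 13.3 to 23.7 FPKM and LMOD3 at 1.34 to 2.33 FPKM. XIRP1 was at 68.7 to 77.2 FPKM in the 4 libraries.

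The Z-disc is the largest of the groups. Of its 13 tested genes, 2 passed the criterion (PDLIM1 with ECsXAV higher, MYOZ1 with CPC higher), against 2.15% of all tested genes. An unadjusted p under 0.05 in limma was found for 8 of the 13, against 18.2% of all tested genes. Of the 8, 6 were higher in ECsXAV and 2 in CPC, against 10.4% and 7.86% of all tested genes. The median log2 fold change was -0.43. Of the 13 intervals, 7 reached a 2-fold change and 6 lay within it, against 87.7% within it over all tested genes.

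MYOZ1 was higher in the CPC cultures, and its cardiac paralog had the opposite sign. MYOZ1 and MYOZ2 encode calsarcins, which tether calcineurin to alpha-actinin: MYOZ1 is the form of fast skeletal fibres and MYOZ2 that of heart and slow fibres. MYOZ1 was at 5.72 and 5.61 FPKM in ECsXAV and at 17.8 and 17.7 FPKM in CPC. The replicates were close in both groups and the CPC level was 3.13 times the ECsXAV level (log2 fold change 1.49, standard error 0.102, adjusted p = 0.0110 from limma). MYOZ2 was at 114 and 116 FPKM in ECsXAV and at 51.2 and 72.3 FPKM in CPC, without overlap and in the opposite order. It did not pass (log2 fold change -0.91, standard error 0.188, adjusted p = 0.0876 from limma). MYOZ1 thereby made up 4.68% ± 0.115 (SD, n = 2) of the calsarcin FPKM in ECsXAV and 22.7% ± 4.29 (SD, n = 2) in CPC, while MYOZ2 stayed the main form in all 4 libraries. Beside this, of 22 skeletal muscle markers 21 were in the table: MYF5, MYF6, PAX7, TMEM8C and MYH1 were listed at 0 in all 4 libraries, MYOD1 was at 0 to 0.0353 FPKM and MYOG at 0.128 to 0.430 FPKM. The list summed to 423 and 508 FPKM in ECsXAV and 488 and 583 FPKM in CPC, with overlapping groups. CKM made up most of these sums, at 375 and 440 FPKM in ECsXAV and 309 and 405 FPKM in CPC. Of the 6 tested genes of the list, 3 (ACTN3, TNNC2 and STAC3) were higher in CPC past the criterion. The other 3 did not pass: TNNT3 was at 3.76 and 3.89 FPKM in ECsXAV against 0.988 and 1.92 in CPC (adjusted p = 0.0989 from limma), and the log2 fold change was -0.20 for CKM and 0.34 for TNNI2.

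MYOZ1 lies beside SYNPO2L on the minus strand of chromosome 10, at chr10:75391370-75401232 and chr10:75404639-75423561 of GRCh37, with 3406 bases between them, and the neighbours had opposite signs. SYNPO2L encodes an actin-bundling protein of the Z-disc. It was at 72.3 and 69.4 FPKM in ECsXAV and 31.6 and 41.5 FPKM in CPC, without overlap, and did not pass (log2 fold change -0.95, standard error 0.159, adjusted p = 0.0592 from limma). An antisense gene, SYNPO2L-AS1, lies in the same locus, and reads of a gene and its antisense partner cannot be told apart unless strand was used. The methods give strand-specific read counts, but how strand was handled for the FPKM is not given in the sources used here. The windows of 250 bases before the RefSeq start sites of both genes are shown because the genes are neighbours with opposite signs. Each holds 1 MEF2 site, in capitals, which begins 72 bases before the start in MYOZ1 (chr10:75401233-75401482) and 164 bases before it in SYNPO2L (chr10:75415788-75416037). The SYNPO2L window stands before a start site inside the GENCODE span of the gene, and not upstream of the whole gene.
MYOZ1: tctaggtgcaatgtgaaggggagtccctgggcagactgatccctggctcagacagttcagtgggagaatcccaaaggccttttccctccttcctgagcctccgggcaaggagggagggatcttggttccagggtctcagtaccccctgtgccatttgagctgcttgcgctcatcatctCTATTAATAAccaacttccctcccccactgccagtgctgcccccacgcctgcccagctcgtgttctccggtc
SYNPO2L: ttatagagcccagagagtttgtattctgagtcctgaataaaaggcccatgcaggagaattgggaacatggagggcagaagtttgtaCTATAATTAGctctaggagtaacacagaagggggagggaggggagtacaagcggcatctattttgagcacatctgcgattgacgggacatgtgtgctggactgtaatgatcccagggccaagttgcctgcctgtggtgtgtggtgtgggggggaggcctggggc

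PDLIM1 was higher in the ECsXAV cultures, in which no cell type was purified. The PDZ-LIM proteins bind alpha-actinin with 1 end and other proteins with the other, and PDLIM1 is also found on the actin stress fibres of cells outside muscle. PDLIM1 (chr10:96997329-97050769, minus strand) was at 125 and 120.3 FPKM in ECsXAV and at 42.4 and 52.0 FPKM in CPC. The groups did not overlap, the ECsXAV level was 2.60 times the CPC level, and the log2 fold change was -1.37 (standard error 0.139, adjusted p = 0.0237 from limma). PDLIM3, a muscle member of the family, was at 2.97 and 4.21 against 1.41 and 1.24 FPKM (log2 fold change -0.97, adjusted p = 0.0743 from limma). PDLIM5, which brings protein kinases to the Z-disc, was at 189 and 166 against 157 and 132 FPKM (log2 fold change -0.30). PDLIM7 had the other sign, at 24.1 and 31.7 FPKM in ECsXAV and 37.9 and 37.9 FPKM in CPC (log2 fold change 0.44, adjusted p = 0.240 from limma). Its 2 groups did not overlap. PDLIM1 made up 36.7% and 37.3% of the summed FPKM of these 4 genes in ECsXAV and 17.8% and 23.3% in CPC.

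The window before PDLIM1 (250 bases, chr10:97050761-97051010) is shown because it is unlike those of MYBPC3 and MYOZ1: it had no MEF2 site and 8 copies of GGGCGG, counted on both strands, some of them overlapping. The copies are in capitals.
PDLIM1: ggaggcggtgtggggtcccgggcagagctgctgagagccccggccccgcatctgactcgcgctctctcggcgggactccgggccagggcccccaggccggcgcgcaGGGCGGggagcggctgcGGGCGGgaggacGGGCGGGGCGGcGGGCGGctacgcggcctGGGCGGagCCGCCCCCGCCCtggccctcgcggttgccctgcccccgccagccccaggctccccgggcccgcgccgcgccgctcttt

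The other Z-disc genes were called in neither direction. CSRP3, the muscle LIM protein, was the most abundant at 382 and 370.1 FPKM in ECsXAV and at 213 and 271 FPKM in CPC, without overlap (log2 fold change -0.64, standard error 0.161, adjusted p = 0.129 from limma). TCAP, or telethonin, joins the ends of titin at the Z-disc. It was at 124 and 155 FPKM in ECsXAV and at 74.0 and 69.7 FPKM in CPC, without overlap (log2 fold change -0.94, standard error 0.150, adjusted p = 0.0535 from limma). LDB3 (ZASP or cypher), a PDZ-LIM protein of the Z-disc, differed little, at 213 and 179 against 202 and 191 FPKM (95% interval -0.35 to 0.37). Filamin C (FLNC) was at 104 and 117 against 110.0 and 104 FPKM. MYPN, or myopalladin, was at 4.42 to 5.73 FPKM and SYNPO2 at 2.53 to 4.57 FPKM, each higher in both ECsXAV libraries.

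FLNC was also read mostly as 1 of its transcripts. NM_001127487 made up 77.8% and 75.2% of the FLNC FPKM in ECsXAV and 75.7% and 72.1% in CPC, with overlapping groups, and the rest was NM_001458. NM_001127487 is known as the form without the exon of the first hinge, which the deposited files do not state. The exon is shown because it sets the forms apart. It was taken from GENCODE as the coding exon that 1 of a pair of FLNC reading frames lacks: exon 31 of a transcript with 48 coding exons, at chr7:128490030-128490128 (plus strand), with 99 bases or 33 codons, so that the reading frames have 2725 and 2692 codons. No base is in capitals.
FLNC hinge exon: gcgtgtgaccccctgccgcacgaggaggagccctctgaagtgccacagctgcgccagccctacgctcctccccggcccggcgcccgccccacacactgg

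**Figure D2:**
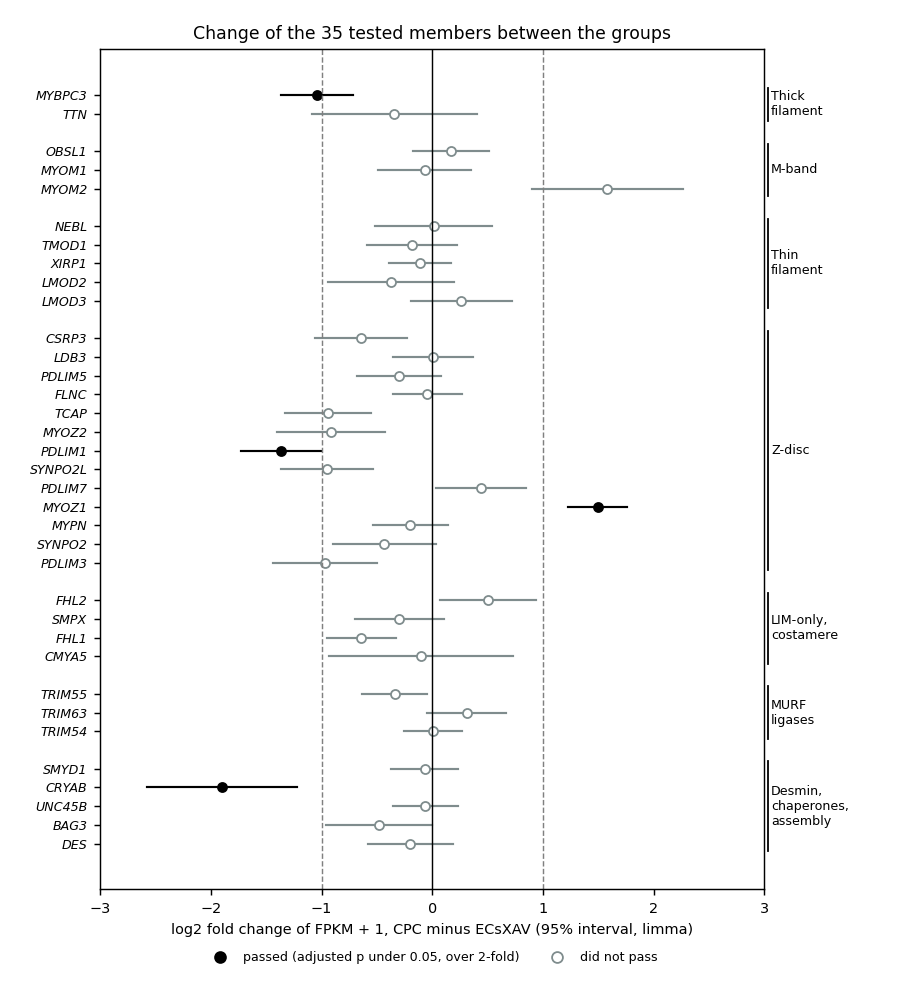
Log2 fold change of FPKM + 1, CPC minus ECsXAV, with its 95% interval from limma for the 35 tested genes by functional group. Filled black points met the criterion (CRYAB, PDLIM1, MYBPC3 and MYOZ1), open points did not, and dashed lines mark a 2-fold change. Of the 4 filled points, 3 lie left of 0 and MYOZ1 lies right of it, and MYOM2 is the open point farthest to the right.

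Among the LIM-only and costamere genes none passed. FHL2, a cofactor and titin-binding protein of the heart, had the highest mean over the 4 libraries, at 332 and 366 FPKM in ECsXAV and 440.5 and 553 FPKM in CPC. In both ECsXAV libraries SMPX, MYBPC3 and CSRP3 were above it. Both CPC libraries were higher (log2 fold change 0.50, standard error 0.167, adjusted p = 0.219 from limma). FHL1, which binds titin in the I-band, had the opposite order, at 33.1 and 34.2 against 19.6 and 22.9 FPKM (log2 fold change -0.64, standard error 0.121, adjusted p = 0.0745 from limma). Of the FPKM of both genes, FHL1 took 8.81% ± 0.371 (SD, n = 2) in ECsXAV and 4.12% ± 0.203 (SD, n = 2) in CPC. SMPX, a small protein of the costamere, was at 458 and 369.8 against 333 and 337 FPKM. CMYA5, or myospryn, was at 26.6 and 23.5 FPKM in ECsXAV and at 32.5 and 16.5 FPKM in CPC, the widest gap between replicates among the 35, at 0.939 on the log2 scale.

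The 3 muscle RING finger ligases, which tag sarcomere proteins for breakdown, lay within 2-fold. TRIM55 (MURF2) was the most abundant at 73.5 and 65.3 FPKM in ECsXAV and 54.2 and 54.8 FPKM in CPC (log2 fold change -0.34, adjusted p = 0.219 from limma). TRIM63 (MURF1), the ligase of muscle atrophy, was at 27.9 and 29.3 against 32.2 and 39.6 FPKM (log2 fold change 0.31, 95% interval -0.05 to 0.67). TRIM54 (MURF3) was level at 29.0 to 30.3 FPKM. TRIM55 gave 56.0% and 52.8% of the family FPKM in ECsXAV and 46.5% and 44.4% in CPC, and TRIM63 gave 21.3% and 23.7% against 27.6% and 32.1%.

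CRYAB had the lowest fold change of all 35. It encodes alphaB-crystallin, a small heat shock protein that shields desmin, titin and actin (chr11:111779288-111794446, minus strand). Its level was 291 and 282 FPKM in the ECsXAV libraries and 58.6 and 98.7 FPKM in the CPC libraries. The groups did not overlap and the CPC libraries differed from each other by more than the ECsXAV libraries did. The log2 fold change was -1.90 (standard error 0.261, 95% interval -2.57 to -1.22, adjusted p = 0.0414 from limma), and the ECsXAV level was 3.64 times the CPC level. After quantile normalization the change was -1.79 and did not pass (adjusted p = 0.0505 from limma). The other genes of this group did not pass. BAG3, the cochaperone that clears damaged filamin, was at 35.6 and 38.1 against 21.9 and 31.0 FPKM (log2 fold change -0.48, adjusted p = 0.273 from limma). Desmin (DES), the intermediate filament of muscle, was at 10.2 to 14.0 FPKM in the 4 libraries, with overlapping groups. The myosin chaperone UNC45B was at 72.0 to 79.9 FPKM, and the methyltransferase SMYD1, which works with it in thick filament assembly, at 300.5 and 293 against 285 and 281 FPKM.

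**Figure D3:**
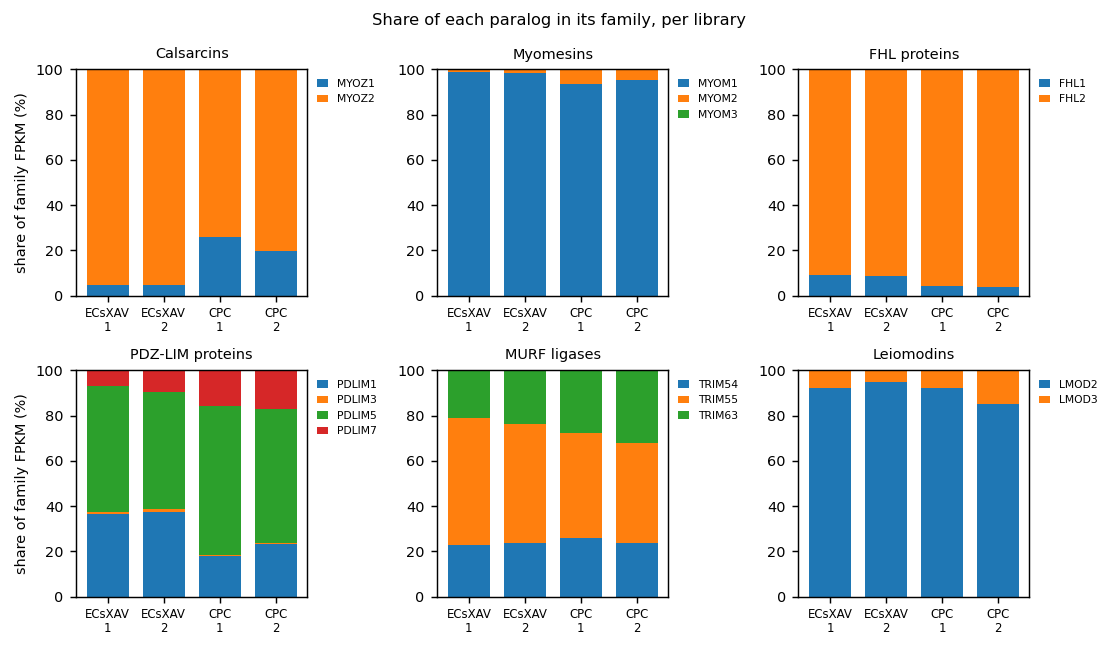
Share of each paralog in the summed FPKM of its family, in percent, for 6 families and each of the 4 libraries. The share of MYOZ1 is 4.76% and 4.60% in ECsXAV and 25.8% and 19.7% in CPC, and the share of PDLIM1 is 36.7% and 37.3% in ECsXAV and 17.8% and 23.3% in CPC.

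The same member led its family in all 4 libraries: MYBPC3, NEBL, XIRP1, MYOM1, MYOZ2, LMOD2, FHL2, PDLIM5 and TRIM55. MYBPC3 made up 99.94% to 99.99% of the myosin-binding protein C FPKM and NEBL 99.97% to 99.98% of the nebulin family FPKM. XIRP1 made up 98.5% to 99.7% of the XIRP FPKM. The MYOM2 share of the myomesins was 0.844% and 1.38% in ECsXAV and 6.12% and 4.19% in CPC. LMOD3 gave 5.35% to 14.8% of the leiomodin FPKM, with overlapping groups. These shares were set side by side without a test.

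The transcript forms of the genes were set side by side next. The isoform table listed 120 RefSeq transcripts of the 42 genes, of which 67 had a mean of at least 1 FPKM and 1 passed the criterion, while 0.0727% of the 16504 tested transcripts passed. An unadjusted p under 0.05 was reached by 17 of the 67, and by 13.1% of all tested transcripts. Part of this count repeats the result by gene, since 17 of the 42 genes had only 1 listed transcript. For 19 of the 42 genes, 2 or more transcripts reached a mean of 1 FPKM. Such transcripts share most of their bases, and Cufflinks divided the reads between them by an estimate. For MYPN and UNC45B the split between transcripts swung between replicates while the sum held: NM_001033576 of UNC45B took 16.0% and 0.0545% of the gene in ECsXAV and 23.7% and 44.7% in CPC.

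The 1 transcript that passed was of PDLIM5. NM_001256428 was at 0.00723 and 0.00271 FPKM in ECsXAV and at 21.2 and 17.0 FPKM in CPC, where it made up 13.5% and 12.8% of the gene (log2 fold change 4.31, standard error 0.188, adjusted p = 0.0413 from limma). NM_006457 had the opposite pattern, at 17.3 and 17.3 FPKM in ECsXAV and at 0.815 and 0.288 FPKM in CPC, and did not pass (log2 fold change -3.58, adjusted p = 0.0719 from limma). The sum of the pair was 17.3 and 17.3 FPKM in ECsXAV and 22.0 and 17.3 FPKM in CPC, with overlapping groups. The call on NM_001256428 was lost with a mean FPKM minimum of 5 (adjusted p = 0.0681 from limma) and with short RNA genes left out (adjusted p = 0.0898 from limma).

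Titin was read mainly as a pair of forms whose shares differed without overlap. Novex-3 (NM_133379) is a short form that ends before the thick filament, and N2-B (NM_003319) is the stiff cardiac form. Novex-3 made up 58.0% and 63.3% of the TTN FPKM in ECsXAV and 38.8% and 44.0% in CPC, while N2-B made up 38.0% and 33.9% against 56.8% and 49.7%. Both ECsXAV libraries had more novex-3 than N2-B and both CPC libraries the reverse. In level, novex-3 was at 53.3 and 59.7 against 38.1 and 24.0 FPKM and did not pass (log2 fold change -0.88, standard error 0.258, adjusted p = 0.320 from limma). The N2-A form (NM_133378), which skeletal muscle uses, was at 1.05 to 1.63 FPKM. Of the other TTN transcripts, NM_001256850 and NM_001267550 were at no more than 0.0463 FPKM in any library. Cufflinks divided the reads that TTN transcripts share by an estimate. A level near 0 therefore does not show that a form was absent, and the shares of novex-3 and N2-B carry the same limit.

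**Figure D4:**
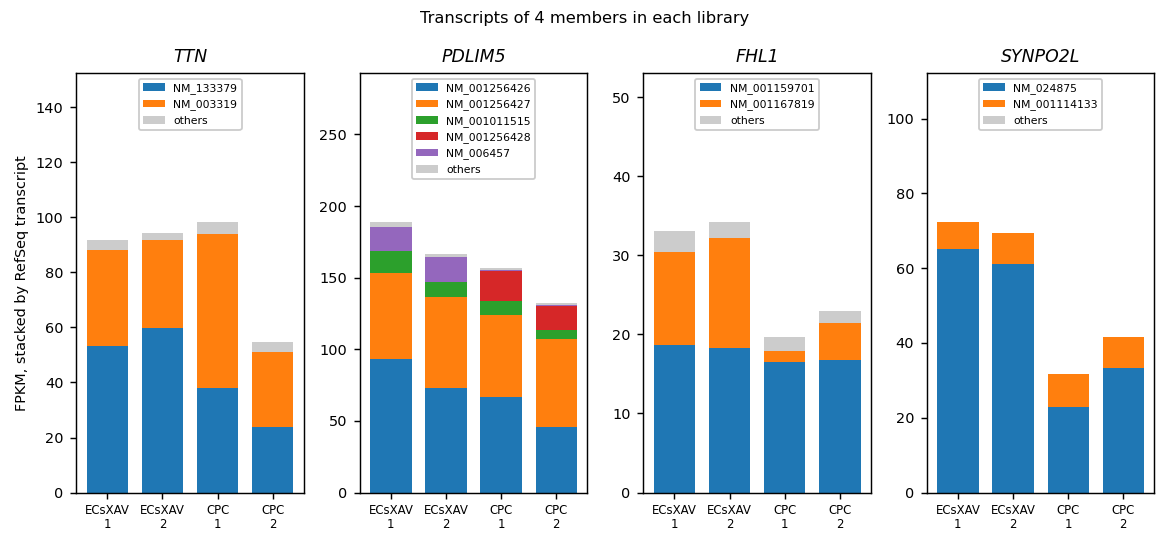
FPKM of TTN, PDLIM5, FHL1 and SYNPO2L in each of the 4 libraries, stacked by RefSeq transcript, with transcripts under a mean of 5 FPKM in grey. The novex-3 form of TTN (NM_133379) is the larger part in ECsXAV and the smaller part in CPC, and in PDLIM5 NM_006457 is visible in ECsXAV and NM_001256428 in CPC.

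For FHL1, NM_001167819 was at 11.7 and 13.9 FPKM in ECsXAV and at 1.38 and 4.76 FPKM in CPC (log2 fold change -1.90, standard error 0.485, adjusted p = 0.275 from limma), while NM_001159701 was at 18.7 and 18.3 against 16.5 and 16.7 FPKM. For SYNPO2L, NM_024875 was at 65.0 and 61.1 against 23.0 and 33.4 FPKM (log2 fold change -1.16, standard error 0.213, adjusted p = 0.204 from limma), and NM_001114133 was level at 7.30 to 8.63 FPKM. None of these passed. LDB3, NEBL and TRIM54 also had 2 or more transcripts, and of NEBL the nebulette transcript NM_006393 made up 98.6% to 99.2% in all 4 libraries.

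Motifs were counted in the 250 bases before the RefSeq start sites. Of the 42 genes, 34 had 57 entries in the table of promoters, and CSRP3, DES, TRIM55, UNC45B, MYBPC2, MYOM2, CRYAB and TCAP had none. A MEF2 site was found in 11 of the 57 windows, of MYOM3, FHL2, XIRP2, TTN, XIRP1, MYOZ2, MYOZ1, SYNPO2L, MYBPC3 and SMPX, and 2.80% of 35116 promoters of all genes hold one. A CArG box, the element of serum response factor, was found in 7 windows, of FHL2, LDB3, MYOM1 and FHL1, and 1.16% of all promoters hold one. GGGCGG was in 15 windows and 42.6% of all promoters, TATAAA in 11 and 10.7%, AGATAA in 11 and 9.17%, CATTCC in 8 and 11.9%, and CAGCTG in 11 and 14.0%. Windows of 1 gene can overlap, so that a site is counted more than once, as in FHL2. Counted by gene, a MEF2 site was in 10 of the 34 and 3.44% of 27305 symbols, and a CArG box in 4 and 1.44%. GGGCGG was in 13 genes and 46.2% of symbols, TATAAA in 8 and 13.05%, AGATAA in 10 and 11.1%, CATTCC in 8 and 14.3%, and CAGCTG in 11 and 16.7%. Both strands were searched, and a TATAAA and a MEF2 site can overlap, as in FHL2. MEF2 sites stood before genes of either sign. MYOZ1 and FHL2 had a positive log2 fold change, and MYBPC3, MYOZ2, SYNPO2L, TTN, XIRP1 and SMPX a negative one. MYOM3 and XIRP2 were under the filter. Whether these sites have a part in the sign was not tested.

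Genes of the sarcomere outside the 42 were counted for comparison. Of 16 contractile genes (myosins, troponins, tropomyosins and actins), all were tested and 3 passed, MYH7 and MYL2 with ECsXAV higher and MYH6 with CPC higher, with a median log2 fold change of -0.30. Of 21 other scaffold and associated genes, 19 were in the table and 18 were tested. Of these, 3 passed: ANKRD1, a titin-binding stretch-responsive repeat protein, and the talin TLN2 with ECsXAV higher, and CAPN3, a titin-bound protease, with CPC higher. The median log2 fold change of the 18 was -0.06. Over all tested genes, 2.15% met the criterion.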

How the data were processed

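Poly-A RNA of 4 unsorted day 14 cultures was sequenced, 2 per group, and groups were taken from the labels, with doses and days from the labels and the study's methods. The authors deposited FPKM values per gene and per transcript, computed with Cufflinks 2.1.1 and UCSC annotations on hg19. The submitters' processing notes name TopHat 1.3.3, while the methods name Gsnap for the reads they counted, so the aligner behind the FPKM is not certain. The methods give strand-specific counts, but how strand and reads with several alignments were handled for the FPKM is not given in the sources used here. Read counts were not used here, so absolute depth is unknown, and relative depth came from the whole-read steps of genes with low FPKM.

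For symbols with several rows, the row with the highest mean was used. Values were tested as log2(FPKM + 1) with limma (version 3.58.1, in R version 4.3.3), a variance prior that follows the intensity, and Benjamini-Hochberg adjustment over the 12398 genes (or 16504 transcripts) with a mean of at least 1 FPKM, and the steps were tested on simulated data. A call needed an adjusted p under 0.05 and a change over 2-fold. Python 3.11.15 with pandas 2.3.3 and NumPy 2.4.6 summarised the fits, and matplotlib 3.10.9 drew them. Gene positions and exons are those of GENCODE (release 44, as lifted to the hg19 assembly GRCh37), and promoters are from RefSeq, found again letter by letter in GRCh37.

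Full values were planned for genes past the criterion (also with the replicate number as a block or without short RNA genes), genes over 2-fold that did not pass, and the most abundant gene of each functional group. Transcripts were planned for genes with at least 2 of them at a mean of 1 FPKM. Other genes and transcripts were named after their values were seen. The members, lists and tests were chosen with earlier results of these data known. The alternatives were quantile normalization, scaling by median ratios or to equal cardiomyocyte markers, a pseudocount of 0.1, no filter on low FPKM or one at a mean of 5, no trend, robust eBayes, the replicate block, short RNA genes left out with and without the block, summed loci, the summed isoform table, and each library left out in turn.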

Additional observations from a re-analysis of the deposited data

How the results depend on the processing

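Over 13 other settings, the 35 tested genes kept their sign and their side of the criterion in 432 of 450 values; 8 lost the criterion, 4 gained it and 6 changed sign. Sign changes were found for values near 0: MYOM1 (0.0036), FLNC (0.033), UNC45B (0.0041) and SMYD1 (0.12) under quantile normalization, and FLNC (0.025) and UNC45B (0.0062) with scaling to equal cardiomyocyte markers. Of the 42 genes, 4 passed in the report, 0 in limma without the filter (15 at an unadjusted p under 0.05, against 3325 of all 18772 genes), 2 under quantile normalization, and 3 to 5 in the other settings. Of all genes, 266 passed in the report, 20 without the filter (60% of them higher in CPC, against 33.1%), 152 with a mean FPKM of at least 5 and 176 with the replicate block. The median of the tested members moved from -0.20 to -0.11 without the filter, where all 42 enter, and to -0.12 under quantile normalization. Member transcripts past the criterion went from 1 to 0 with a pseudocount of 0.1, without the filter, with the block and without short RNA genes. In these settings 18 of 67, 20 of 120, 23 of 67 and 18 of 67 had an unadjusted p under 0.05 in limma. Of all tested transcripts it was reached by 2114 of 16504, 3778 of 34835, 2163 of 16504 and 2203 of 16202, in the same order. With a mean FPKM of at least 5, the 1 that passed was NM_021245 of MYOZ1. Why the filter and scaling move these counts was not tested, beyond the larger number of features to adjust for without the filter (18772 genes). Leaving out a library leaves 1 residual degree of freedom, with the lone library taken to vary like the other group: 0 to 1 members, 50 to 118 genes and 0 member transcripts passed, and the median of the members was -0.24 to -0.13. Sign changes were then seen, with ranges of log2 fold change of -0.76 to 0.077 for TTN, -0.24 to 0.26 for NEBL, -0.22 to 0.080 for MYOM1, -0.12 to 0.13 for LDB3, -0.13 to 0.040 for FLNC, -0.13 to 0.0079 for UNC45B, -0.020 to 0.038 for TRIM54 and -0.57 to 0.37 for CMYA5. The replicate numbers are shared by both groups, but the labels tie them to no batch. The differences between replicate 1 and replicate 2 had a rank correlation of 0.356 between the groups (Pearson's r 0.0349) across 12398 genes, and of 0.028 (Pearson's r -0.00858) across the 35 members, which are genes and not independent replicates. With the replicate number as a block, 3 members passed: MYBPC3, MYOZ1 and PDLIM1, while CRYAB did not (adjusted p = 0.0552 from limma). Depth limits mainly the 7 genes under 1 FPKM, most of all in ECsXAV replicate 2.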
